A study of Mus musculus with 12 samples.

Results

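The helper lineage transcription factors are 9 genes: Tbx21, Eomes, Runx3, Gata3, Rora, Maf, Ahr, Bcl6 and Prdm1. They were taken by name, for their known parts in setting the fate of CD4+ T cells. No measured value enters that rule, but the factors were chosen with earlier results of these data known. All 9 were found by Entrez identifier among the 17523 genes of the deposited table. All 9 also passed the filter on low values, which asked for 5 or more normalized counts in 3 or more libraries and kept 15587 genes.

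The series holds 12 RNA libraries from splenic CD4+ T cells of Gr/fr mice of the C57BL/6 strain. The study calls these mice naïve, that is, in steady state and not immunized. Cells were gated as naïve (CD62L+ and low in CD44) or effector memory (TEM, CD62L− and high in CD44). Each gate was split into YFP− and YFP+ cells, with 3 libraries per group. The design asks what sets apart cells that have made the cytokine GM-CSF, at rest and in the memory compartment. Every group carried the same alleles, and no treatment is stated: a Csf2 allele that also encodes iCre and BFP, and an eYFP reporter in Rosa26 that Cre switches on permanently. YFP therefore marks cells that make GM-CSF now or made it at some earlier time. By the methods, as many mice were used for this sort as there were libraries in a group. The age of the mice used for sequencing is not given in the sources used here.

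CD4+ T cells take on effector fates under the control of a small set of DNA-binding proteins. T-bet, encoded by Tbx21, drives the type 1 fate together with Runx3 and its T-box relative Eomes. GATA3 drives the type 2 fate and is also needed for CD4+ T cells to develop in the thymus. RORα, c-MAF and the aryl hydrocarbon receptor take part in the type 17 fate and in regulatory cells, and BCL6 and BLIMP-1 (encoded by Prdm1) repress one another, with BCL6 favouring follicular helper cells and BLIMP-1 the other effectors.

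The libraries held from 40974124 to 57822269 reads on genes. The sorted marker Cd44 followed the labels and averaged 2831 normalized counts in YFP− naïve and 22014 in YFP− TEM cells. Cd4 lay at 36078 or more in every library. Csf2 was at most 3.94 normalized counts in each of the 9 libraries other than YFP+ TEM and from 55.9 to 152 in YFP+ TEM cells. Marker genes of other cells were present in TEM libraries and differed with YFP. The summed normalized counts of 8 conventional dendritic cell genes ran from 9495 to 19658 in YFP− TEM and from 515 to 1161 in YFP+ TEM cells, against 78.3 to 356 in naïve cells. Those of 5 invariant NKT cell genes ran from 831 to 1066 and from 5161 to 11344. In bulk RNA, fewer cells with a transcript and less transcript per cell cannot be told apart.

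Promoters of some members are shown first, since several of these factors are known to act on each other's genes or on their own. RefSeq (GRCm38.p6) held a start site window for 7 of the 9, with Maf and Ahr missing. The 250 bases before each start were searched on both strands for 8 short words: AGGTGT for T-box factors, AGATAA for GATA factors, AGGTCA for ROR, TTCNNNGAA for BCL6 and STAT factors, TGCTGA for MAF, GCGTG for the aryl hydrocarbon receptor, GAAAGT for BLIMP-1 and TGTGGT for RUNX. Of 32851 RefSeq windows of this length, these words were found in 11.8%, 9.99%, 14.0%, 7.02%, 16.1%, 28.2%, 12.3% and 14.0%, respectively. Each sequence below is written 5′ to 3′ on the strand of its gene, ends at the base before the start, and has matches to the words in capitals. The Tbx21 window (chr11:97115332-97115581, minus strand) belongs to the member with the widest range of levels and held none of the 8 words. Bcl6 has a window at its upstream start (chr16:23988853-23989102, minus strand) and one at a start inside the gene (chr16:23981284-23981533, minus strand). Prdm1 is shown at a start inside its span, chr10:44458749-44458998 on the minus strand, and Runx3 at its distal start, chr4:135120395-135120644 on the plus strand, where an exon of Gm16225 overlaps the window.
Tbx21: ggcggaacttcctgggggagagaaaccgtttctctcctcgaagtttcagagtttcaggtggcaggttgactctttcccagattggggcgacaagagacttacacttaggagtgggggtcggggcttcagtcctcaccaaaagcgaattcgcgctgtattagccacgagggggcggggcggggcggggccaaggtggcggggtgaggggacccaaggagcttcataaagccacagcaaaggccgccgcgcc
Bcl6, upstream start: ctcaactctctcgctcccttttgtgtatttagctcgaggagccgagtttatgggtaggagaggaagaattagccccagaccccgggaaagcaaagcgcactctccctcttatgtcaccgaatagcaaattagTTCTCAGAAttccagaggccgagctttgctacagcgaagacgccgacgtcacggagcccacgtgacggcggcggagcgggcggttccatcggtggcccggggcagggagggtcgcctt
Bcl6, inner start: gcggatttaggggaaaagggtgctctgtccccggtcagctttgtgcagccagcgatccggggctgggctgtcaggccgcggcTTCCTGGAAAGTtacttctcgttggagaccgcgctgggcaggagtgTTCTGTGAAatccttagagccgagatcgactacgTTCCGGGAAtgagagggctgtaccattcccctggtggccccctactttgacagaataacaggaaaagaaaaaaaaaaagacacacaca
Prdm1, inner start: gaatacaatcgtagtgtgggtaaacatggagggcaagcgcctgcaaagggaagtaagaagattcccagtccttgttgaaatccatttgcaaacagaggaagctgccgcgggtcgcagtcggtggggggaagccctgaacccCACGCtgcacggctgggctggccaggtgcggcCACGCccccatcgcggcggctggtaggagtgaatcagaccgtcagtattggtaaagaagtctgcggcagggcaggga
Runx3, distal start: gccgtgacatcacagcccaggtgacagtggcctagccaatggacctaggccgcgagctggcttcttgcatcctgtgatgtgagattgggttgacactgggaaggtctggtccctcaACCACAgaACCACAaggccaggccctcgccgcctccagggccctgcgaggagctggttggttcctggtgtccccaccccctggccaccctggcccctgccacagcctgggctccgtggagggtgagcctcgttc

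The BCL6 and STAT word TTCNNNGAA occurred 118 bases before the upstream Bcl6 start and 168, 122 and 88 bases before the inner one. The BLIMP-1 word GAAAGT lay 162 bases before the inner Bcl6 start and shared bases with the first of those 3 matches. Prdm1 held the word for the aryl hydrocarbon receptor on the opposite strand, 109 and 77 bases before its inner start. Runx3 held the RUNX word on the opposite strand, 134 and 126 bases before its distal start. Windows not shown are those of Eomes and of the second Runx3 start (chr4:135152295-135152544), which held none of the 8 words. Those of Gata3 and Rora are also not shown. Gata3 held the MAF word TGCTGA 90 bases before its listed start. That window (chr2:9878601-9878850, minus strand) lies inside the span of Gata3, and an exon of Gm13256 overlaps it. Rora held the word GCGTG on the opposite strand, 167 bases before its listed start. The Rora window (chr9:68653536-68653785, plus strand) also lies inside the span of its gene. All of these are matches of letters and not measured binding.

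The gene positions are RefSeq spans on the same build. Tbx21 (Entrez 57765) lies on chromosome 11 from 97098007 to 97115331 on the minus strand. Eomes (13813) spans 118478186 to 118486132 on the plus strand of chromosome 9, and Rora (19883) spans 68653404 to 69388246 on the plus strand of the same chromosome. Gata3 (14462) lies on the minus strand of chromosome 2 from 9857078 to 9887953, Bcl6 (12053) on the minus strand of chromosome 16 from 23965050 to 23988866, and Ahr (11622) on the minus strand of chromosome 12 from 35497979 to 35534989. Maf (17132) lies on the minus strand of chromosome 8 from 115703253 to 115706894, Prdm1 (12142) on the minus strand of chromosome 10 from 44437174 to 44528558, and Runx3 (12399) on the plus strand of chromosome 4 from 135120645 to 135177990. Each value is for the whole gene, exons of all transcripts together, so isoforms such as those from the separate Runx3 starts cannot be told apart. RefSeq transcripts overlap Eomes, Gata3, Rora and Bcl6, and of these overlapping genes those listed in the table both lie in Gata3. They were low: 4930412O13Rik averaged 26.6 normalized counts and 9230102O04Rik 9.69 in YFP− TEM cells, where Gata3 averaged 10498.

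Of the 9 factors, 8 were higher in TEM than in naïve cells when averaged over YFP status (limma, adjusted p of 0.05 or less). Runx3 did not pass this test. It did with the replicate number as a block, although the numbers did not pair YFP+ naïve with YFP+ TEM libraries. Without the block, 59.5% of all tested genes were called in this comparison and 34.2% were called higher. This split depended on the scaling, with 5328 genes higher and 3954 lower as deposited, and 4099 and 6675 after quantile normalization, but all 9 factors kept their sign. In each of the 8 factors every TEM library lay above every naïve library, which was so for 21.9% of all genes. The median log2 difference was 1.92 over the 9 factors and 0.04 over all tested genes. The same 8 were called higher in YFP− cells, where 49.8% of genes were called (29.9% higher), and in YFP+ cells, where 41.4% were (24.7% higher), and these 2 comparisons share no library. After quantile normalization the genes called higher and lower changed from 4665 and 3104 to 3585 and 5925 in YFP− cells, and from 3849 and 2604 to 3063 and 4626 in YFP+ cells.

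**Figure D1:**
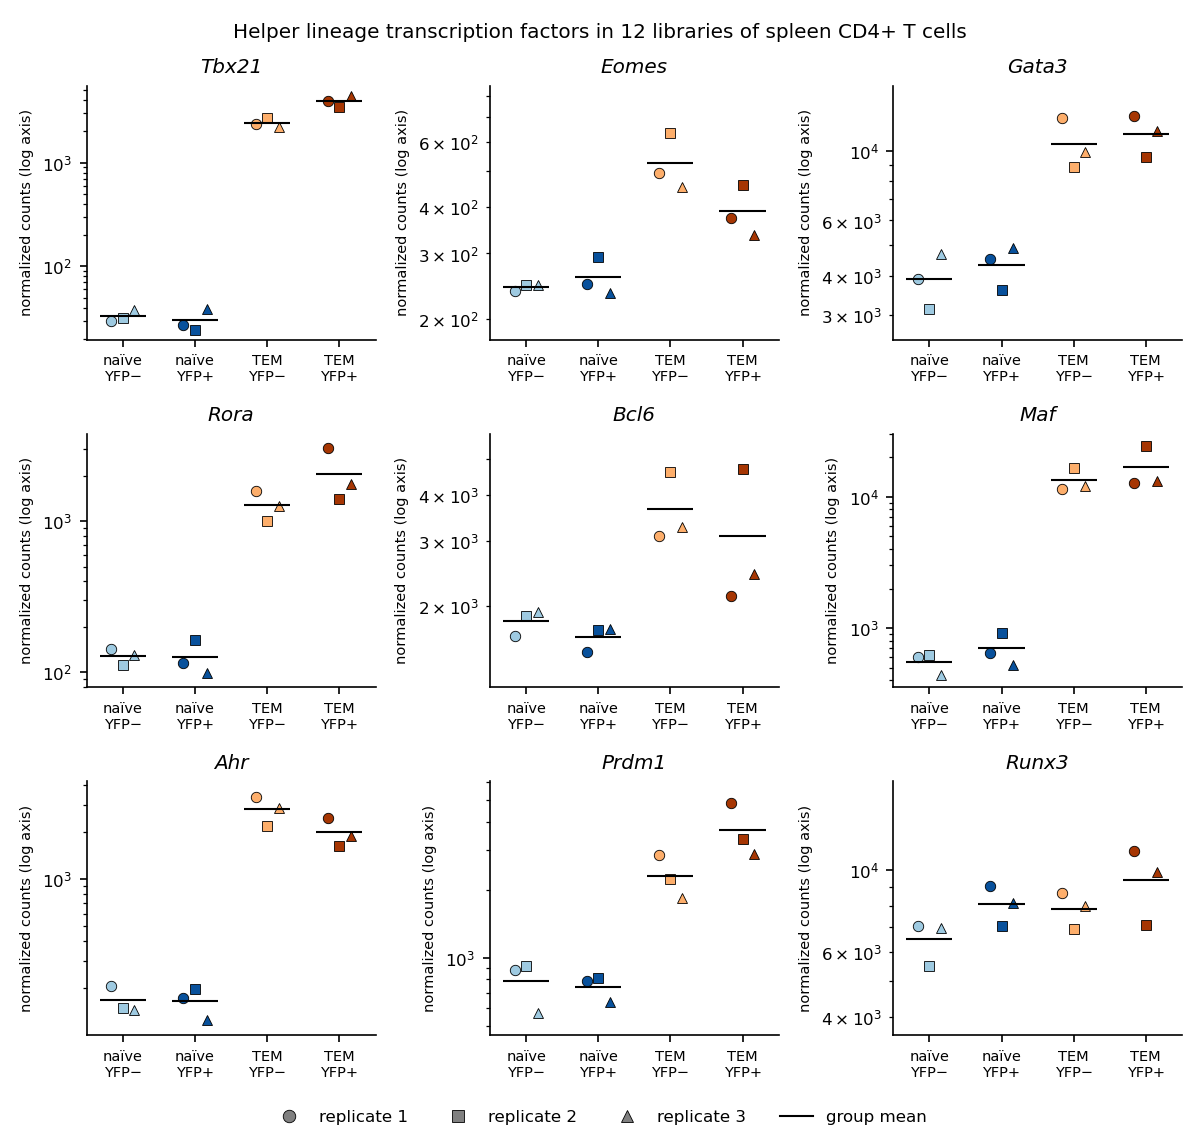
Normalized counts of the 9 factors in each library on a log axis, one panel per gene, with the 4 groups along the horizontal axis, marker shapes for the replicate number and a line at each group mean. TEM libraries lie above all naïve libraries in every panel but that of Runx3, and Tbx21 spans the widest range, from 24.6 to 4363.

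Among the type 1 factors, Tbx21 had 29.9, 31.8 and 38.0 normalized counts in YFP− naïve libraries 1 to 3 and 27.2, 24.6 and 39.1 in YFP+ naïve libraries. It had 2357, 2692 and 2207 in YFP− TEM and 3890.4, 3418 and 4363 in YFP+ TEM libraries. All 6 TEM libraries were thus far above the naïve ones, and the YFP+ TEM libraries were all above the YFP− ones. The difference between TEM and naïve cells was 6.56 on the log2 scale (SE 0.13, limma adjusted p = 7.1e-12), the largest of the 9. Among all tested genes, the mean level of Tbx21 was at the 26.9th percentile in YFP− naïve cells and at the 73.6th in YFP− TEM cells.

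Eomes, the T-box factor better known from cytotoxic and memory CD8+ T cells, moved far less than its relative. It had 237, 246 and 247 normalized counts in YFP− naïve and 249, 294 and 235 in YFP+ naïve libraries. It had 494, 634 and 453 in YFP− TEM and 375, 459.8 and 336 in YFP+ TEM libraries. The YFP fractions of TEM cells overlapped, and the lowest TEM library still exceeded the highest naïve library. The averaged difference was 0.84 (SE 0.12, limma adjusted p = 5.6e-05). It was 1.10 in YFP− cells and 0.58 (adjusted p = 0.0148) in YFP+ cells. The latter call was lost without replicate 2 of YFP+ TEM (adjusted p = 0.0651) or replicate 3 of YFP+ naïve cells (0.0585), and quantile normalization gave 0.14 (0.554). That scaling also lowered the averaged difference of Eomes to 0.31 (adjusted p = 0.0437) and that in YFP− cells to 0.49 (0.0324). Of the CD8+ T cell genes, Cd8a averaged 371 normalized counts in YFP− TEM and 44.6 in YFP+ TEM cells, and Cd8b1 751 and 240. Both were lower in YFP+ TEM cells (−3.13, limma adjusted p = 0.0093, and −1.63, 0.0013), as were 4.67% of all genes. The part of CD8+ T cells in the level of Eomes was not tested.

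Runx3, which works with T-bet at type 1 genes and is known for silencing Cd4 in CD8+ T cells, was already high before memory. It had 7039.6, 5508 and 6957 normalized counts in YFP− naïve libraries, 9033, 7066 and 8108 in YFP+ naïve, 8637, 6933 and 7984 in YFP− TEM and 11243, 7087 and 9845 in YFP+ TEM libraries. TEM and naïve libraries overlapped within each YFP fraction, while every YFP+ library, naïve or TEM, lay above every YFP− naïve library. The difference between TEM and naïve cells was 0.24 (SE 0.12, 95% interval −0.01 to 0.49, limma adjusted p = 0.0953). With the replicate number as a block the averaged difference was called higher (adjusted p = 0.0015), as was that in YFP− cells (0.0063; 33% of genes were called higher in that fit). The averaged difference also uses the YFP+ naïve and YFP+ TEM libraries, which the numbers did not pair. Their deviations from the group means correlated at 0.204, −0.020 and 0.056 in numbers 1 to 3. It was also called higher without replicate 2 of YFP+ TEM cells (0.0107) and after quantile normalization (0.0116), which moved the median of all genes from 0.04 to −0.16. The other Runx genes gave values on both sides of it: Runx1 did not pass the test (log2 difference −0.02), while Runx2 averaged 89.9 and 40.4 normalized counts in the naïve groups and 3653 and 2449.7 in the TEM groups. Runx2 is also abundant in plasmacytoid dendritic cells. Their 8 marker genes, Runx2 included, summed to 11909 to 17086 in YFP− TEM, 9404 to 9771 in YFP+ TEM and 5812 to 6920 in naïve cells. Pacsin1 made up much of these sums, with means of 6099 and 6359 in the naïve groups and 5142 and 4473 in the TEM groups. Siglech averaged 0.384 and 5.58 in the naïve groups, 2681 in YFP− TEM and 66.8 in YFP+ TEM cells. For YFP in TEM cells 5 of the 8 were lower and 0 higher, against 4.67% and 2.3% of all genes. The part of such cells in the level of Runx2 was not tested.

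Gata3, the type 2 factor, was abundant in every group. It had 3902, 3134 and 4697 normalized counts in YFP− naïve and 4514, 3599.9 and 4911 in YFP+ naïve libraries. It had 12711, 8849.7 and 9932 in YFP− TEM and 12839, 9559 and 11513 in YFP+ TEM libraries. TEM and naïve libraries did not overlap, and the fractions by YFP overlapped in both compartments. The averaged difference was 1.40 (SE 0.13, a fold of 2.65, limma adjusted p = 9.0e-07), with 1.43 in YFP− and 1.38 in YFP+ cells.

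Rora, which encodes a nuclear receptor of type 17 and type 2 lymphoid cells, had 144, 112 and 131 normalized counts in YFP− naïve and 115, 164 and 99.5 in YFP+ naïve libraries. It had 1573, 1004 and 1260.1 in YFP− TEM and 3031, 1395 and 1771 in YFP+ TEM libraries. The highest value, in replicate 1 of YFP+ TEM, stood well above the other TEM libraries. The averaged difference was 3.63 (SE 0.19, limma adjusted p = 9.8e-09). It was 3.28 in YFP− and 3.98 in YFP+ cells.

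Maf encodes c-MAF, a bZIP factor for Il4, Il10 and Il21. It had 602, 622 and 441 normalized counts in YFP− naïve, 650.5, 919 and 527 in YFP+ naïve, 11469.7, 16652 and 12032 in YFP− TEM and 12836, 24173 and 13184 in YFP+ TEM libraries. Replicate 2 was the highest library in each of the 4 groups. The averaged difference was 4.57 (SE 0.18, limma adjusted p = 8.8e-10). Ahr, a sensor of small aromatic ligands, had 206, 151 and 145 normalized counts in YFP− naïve, 173, 199 and 126 in YFP+ naïve, 3378, 2183 and 2854 in YFP− TEM and 2466, 1639 and 1881 in YFP+ TEM libraries. Its order among replicates was the reverse of that of Maf in TEM cells, with replicate 2 the lowest in both fractions. The averaged difference was 3.82 (SE 0.16, limma adjusted p = 1.0e-09).

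Bcl6, the repressor that defines follicular helper cells, had 1661, 1872 and 1925 normalized counts in YFP− naïve and 1501, 1721 and 1727 in YFP+ naïve libraries. It had 3105, 4631 and 3285 in YFP− TEM and 2121, 4696 and 2444 in YFP+ TEM libraries. As with Maf, replicate 2 was the highest TEM library in both fractions, while naïve libraries were close together. The averaged difference was 0.90 (SE 0.17, limma adjusted p = 5.4e-04), with 0.99 in YFP− and 0.82 (adjusted p = 0.0162) in YFP+ cells. In YFP+ cells the value was 0.47 without replicate 2 of YFP+ TEM cells (adjusted p = 0.0363), and the call was lost without replicate 1 of YFP+ naïve cells (0.0507).

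Prdm1, which encodes BLIMP-1, had 878, 919 and 567 normalized counts in YFP− naïve and 784, 813 and 636 in YFP+ naïve libraries. It had 2853, 2234 and 1845 in YFP− TEM and 4832, 3364 and 2874 in YFP+ TEM libraries. Every YFP+ TEM library lay above every YFP− TEM library, the closest values being 2874 and 2853. The averaged difference between TEM and naïve cells was 1.92 (SE 0.16, limma adjusted p = 5.0e-07), with 1.56 in YFP− and 2.28 in YFP+ cells.

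**Figure D2:**
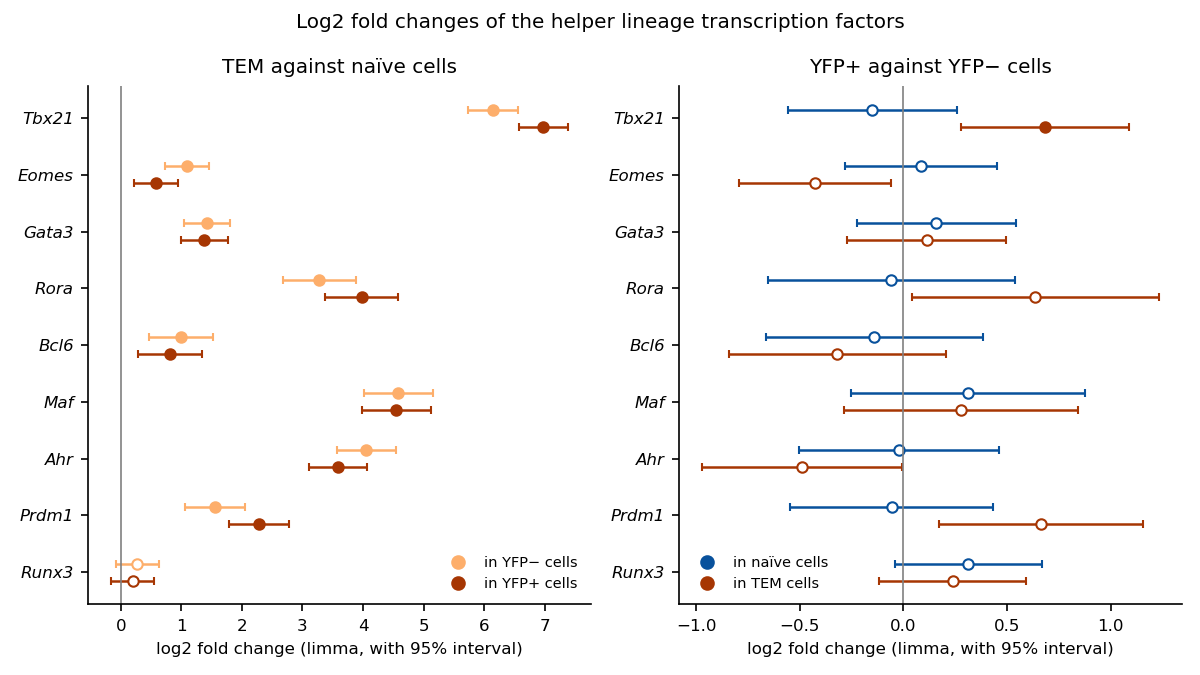
Log2 fold changes of the 9 factors with 95% intervals from limma, on the left for TEM against naïve cells in YFP− and YFP+ cells and on the right for YFP+ against YFP− cells in naïve and TEM cells, with filled points for an adjusted p of 0.05 or less. On the left 8 factors are filled in both fractions, from 0.58 (Eomes) to 6.98 (Tbx21), and on the right only Tbx21 in TEM cells is filled.

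Levels of different genes were compared only as normalized counts per kb of exon. In YFP− naïve cells Runx3 (1299.6 ± 172 per kb, SD, n = 3) and Gata3 (983 ± 196) led, and their libraries overlapped. Bcl6 followed at 272 per kb, Prdm1 at 141, Maf at 67.4, Eomes at 58.6, Ahr at 27.1, Tbx21 at 13.4 and Rora at 9.89, and of these neighbours Maf and Eomes overlapped. In YFP− TEM cells the order was Gata3 (2639 ± 501 per kb), Maf (1624 ± 345), Runx3 (1569 ± 172), Tbx21 (972 ± 99.6), Bcl6 (548 ± 124), Ahr (455 ± 97.2), Prdm1 (414 ± 91.2), Eomes (127 ± 22.8) and Rora (97.9 ± 21.8). Maf overlapped Runx3 there, Ahr overlapped both Bcl6 and Prdm1, and Eomes overlapped Rora. In YFP+ TEM cells the first 4 were the same genes in the same order, with Tbx21 at 1564 ± 189.8 per kb, and each overlapped the next. Prdm1 (661 ± 183 per kb) stood next, overlapping Bcl6 (461 ± 209), and Eomes was last at 94.0 ± 15.2, overlapping Rora (158 ± 65.6). The place of Maf rests on its length: exons of 8241 bases in GENCODE were used, and with the RefSeq span of 3642 bases it would stand at 3675 per kb in YFP− TEM and 4594 in YFP+ TEM cells, above Gata3.

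Pairs of factors with opposed or shared roles were set against each other within a library as ratios of levels per kb. The ratio of Bcl6 to Prdm1 was 1.58, 1.70 and 2.83 in YFP− naïve and 1.59, 1.76 and 2.26 in YFP+ naïve libraries 1 to 3. It was 0.906, 1.73 and 1.48 in YFP− TEM and 0.366, 1.16 and 0.708 in YFP+ TEM libraries. Every YFP+ TEM library was below its same-numbered YFP− TEM library, and replicate 2 kept the highest ratio in both. The ratio of Tbx21 to Gata3 was at most 0.0162 in naïve libraries, 0.297, 0.486 and 0.355 in YFP− TEM and 0.484, 0.572 and 0.606 in YFP+ TEM libraries, which left only replicate 1 of YFP+ TEM inside the range of the YFP− fraction. The ratio of Tbx21 to Eomes was at most 0.277 in naïve libraries. It was 7.97, 7.09 and 8.13 in YFP− TEM and 17.3, 12.4 and 21.7 in YFP+ TEM libraries, with no overlap between any of these 3 sets. The ratios were built from values already given and were not tested.

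**Figure D3:**
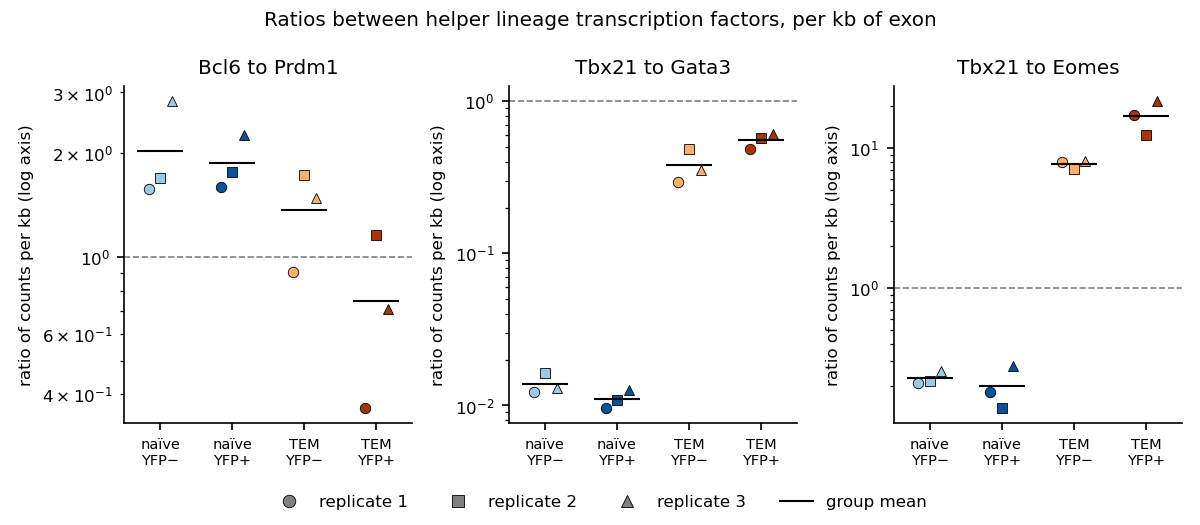
Ratios of levels per kb by library on log axes for Bcl6 to Prdm1, Tbx21 to Gata3 and Tbx21 to Eomes, with a dashed line at a ratio of 1. Tbx21 to Eomes crosses the line between naïve libraries (0.277 or less) and TEM libraries (7.09 or more), whereas Tbx21 to Gata3 stays below it in all libraries.

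YFP+ and YFP− cells were then compared within TEM cells. Tbx21 was higher in YFP+ TEM cells by 0.68 on the log2 scale (SE 0.19, 95% interval 0.28 to 1.09, limma adjusted p = 0.0477), and the other 8 factors did not pass the test. In this comparison 6.97% of all genes were called, with 2.3% of all genes higher (359 higher and 728 lower, or 686 and 806 after quantile normalization). Every YFP+ TEM library lay above every YFP− TEM library for Tbx21 and Prdm1, as for 10.6% of all genes. Without adjustment, 5 of the 9 factors reached 0.05, as 17.1% of all genes did. The call of Tbx21 lay close to the threshold. It was lost in each of the 6 fits that left out 1 TEM library (adjusted p from 0.0617 to 0.21), with 0.1 instead of 1 added before the log (0.0604) and after quantile normalization (0.202). Counting models gave 0.0063 in edgeR and 4.0e-05 in DESeq2, where 7.22% and 10.2% of genes were called.

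The replicate numbers paired the YFP fractions, and the differences within a number were steady for several factors. Tbx21 was higher in YFP+ TEM by 0.72, 0.34 and 0.98 in numbers 1 to 3. Prdm1 differed by 0.76, 0.59 and 0.64, and Eomes by −0.40, −0.46 and −0.43. With the block, Prdm1 was higher (0.66, limma adjusted p = 0.0040) and Eomes lower (−0.43, adjusted p = 0.0472) in YFP+ TEM cells, in a fit that called 5.22% of genes higher and 6.77% lower. Tbx21 had an adjusted p of 0.0205 there. Without it their adjusted p values were 0.119 and 0.192. DESeq2 gave 0.0478 for Prdm1 and edgeR gave 0.0901.

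Ahr was lower in YFP+ TEM libraries of each number, with differences of −0.45, −0.41 and −0.60 (limma −0.49, adjusted p = 0.284). Rora was higher in each by 0.95, 0.47 and 0.49 (0.64, adjusted p = 0.252). Its value ran from 0.32 to 0.88 when 1 library was left out. Gata3 differed by 0.01, 0.11 and 0.21 and Maf by 0.16, 0.54 and 0.13, with adjusted p values of 0.861 and 0.725. In all, 6 factors were higher in YFP+ TEM in every number (Tbx21, Gata3, Rora, Maf, Prdm1 and Runx3) and 2 lower in every number (Eomes and Ahr), against 23% and 24.2% of all genes.

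Bcl6 also turned on single libraries, with values from −0.67 to −0.094 when 1 library was left out. Its same-numbered differences were −0.55, 0.02 and −0.43, and limma gave −0.32 (SE 0.24, adjusted p = 0.617). Without replicate 2 of YFP+ TEM cells it was lower by −0.67 (adjusted p = 0.0260). With all 4 libraries numbered 2 left out, a choice made after seeing the data, the value was −0.49 (adjusted p = 0.0527). In the same pair of libraries the summed level of 13 follicular helper genes was 92625 (YFP− TEM) and 100808 (YFP+ TEM), against 56074 to 73867 in the other 4 TEM libraries. The part of follicular helper cells in the level of Bcl6 was not tested.

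**Figure D4:**
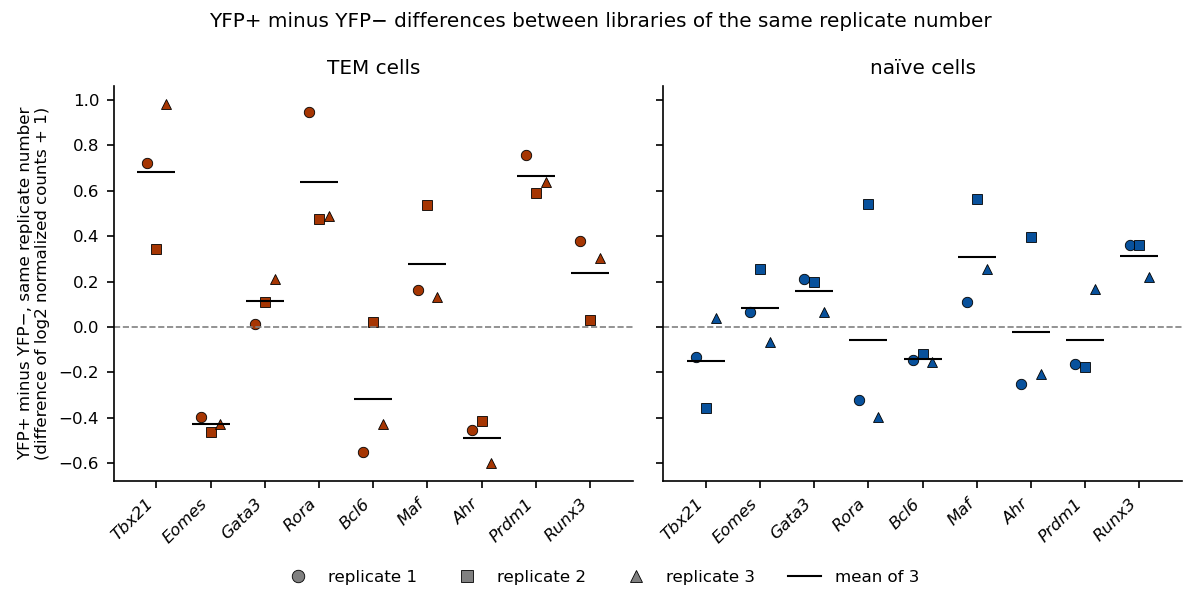
Log2 difference between the YFP+ and YFP− libraries of the same replicate number for each factor, in TEM and in naïve cells, with a line at 0. In TEM cells Prdm1 lies between 0.59 and 0.76 and Eomes between −0.46 and −0.40 in all 3 numbers, while the points of Bcl6 run from −0.55 to 0.02.

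In naïve cells YFP status went with no call among the factors, as with nearly all genes: 0 of the 9 passed the test in limma, which called 0.00642% of genes, and 0 of the 9 reached 0.05 without adjustment, as 3.32% of all genes did. Blocked limma, edgeR and DESeq2 also called none of the 9. The log2 differences ran from −0.15 (Tbx21) to 0.31 (Maf and Runx3). Runx3 was the one factor whose naïve libraries did not overlap, with 7066 to 9033 normalized counts in YFP+ and 5508 to 7039.6 in YFP− cells, which held for 3.16% of all genes. Its same-numbered differences were 0.36, 0.36 and 0.22 and its adjusted p with the block was 0.302. The YFP effect was not shown to differ between TEM and naïve cells for any factor in limma (0 of 9 called against 3.55% of all genes, with unadjusted p of 0.00825 for Tbx21 and 0.0435 for Prdm1). That difference was 0.83 for Tbx21 (SE 0.27, adjusted p = 0.139) and 0.72 for Prdm1 (SE 0.32, adjusted p = 0.394). With the block Prdm1 was called (adjusted p = 0.0298; 1.88% of genes were called higher), and Tbx21 was called without replicate 3 of YFP+ naïve cells (0.0349).

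The genes that act with or under each factor were described from lists of known pathway members. Of 17 type 1 genes, 15 were higher and 2 lower in TEM than in naïve cells, with a median log2 difference of 4.69. For this and the following lists, the shares over all tested genes were 34.2% higher and 25.4% lower, with a median of 0.04. Ifng, the main type 1 cytokine, averaged 2.51 and 1.07 normalized counts in the naïve groups and 799 and 1180 in the TEM groups. The chemokine receptor Cxcr3, a known T-bet target, was higher by 8.28 (SE 0.23), while the cytolytic protein Prf1 was lower by −2.73 (SE 0.21, limma adjusted p = 2.0e-07). In YFP+ against YFP− TEM cells 5 of the 17 were higher and 1 lower, where 2.3% of all genes were higher and 4.67% lower, and the median was 0.77 against −0.01 over all genes. Of these 17, 8 were higher with the replicate block and 7 in edgeR and after quantile normalization. The IL-2 and IL-15 receptor chain Il2rb was higher by 0.96 (adjusted p = 0.0027), Prf1 by 3.05 (1.3e-04) and the chemokine Xcl1 by 2.94 (0.0021). The remaining 2 that were higher were Fasl, a death ligand (1.86, adjusted p = 7.2e-04), and Il12rb2, the receptor chain for IL-12 (2.06, 0.0069). The 1 that was lower was Hlx, a homeobox factor that works with T-bet (−2.85, adjusted p = 0.0209). Hlx averaged 428 normalized counts in YFP− TEM and 54.4 in YFP+ TEM cells. Of 8 conventional dendritic cell genes 7 were also lower in YFP+ TEM cells, and the part of such cells in the level of Hlx was not tested. Ifng differed by 0.50 (adjusted p = 0.845).

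Prf1 did not follow Tbx21 through the compartments. It averaged 3413 and 3465 normalized counts in YFP− and YFP+ naïve cells, 176 in YFP− TEM and 1582 in YFP+ TEM cells. Genes of NK cells and of invariant NKT cells, which also use T-bet and several of these effectors, moved with YFP as well. All 4 of the tested NK and ILC1 genes were higher in YFP+ TEM cells (median 3.48), and so were all 5 invariant NKT genes (median 3.25). The summed NK genes were at most 168 in YFP− TEM and from 976 to 1815 in YFP+ TEM libraries. Most of each sum was Klrb1c, which is on both lists and averaged 154 in YFP− TEM and 1304 in YFP+ TEM cells. In YFP+ TEM cells Klre1 averaged 69.7, Ncr1 32.6 and Klra4 25.3. Ncr1, which marks NK cells and ILC1, was at 0 in every YFP− library. Zbtb16, the factor that defines invariant NKT cells, had 260.0, 108 and 198 normalized counts in YFP− TEM and 2655, 884 and 2088 in YFP+ TEM libraries. It was lowest in replicate 2 of both fractions, as were Rora, Ahr, Gata3 and Runx3. The part of such cells in the level of Tbx21 or of the type 1 genes was not tested.

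**Figure D5:**
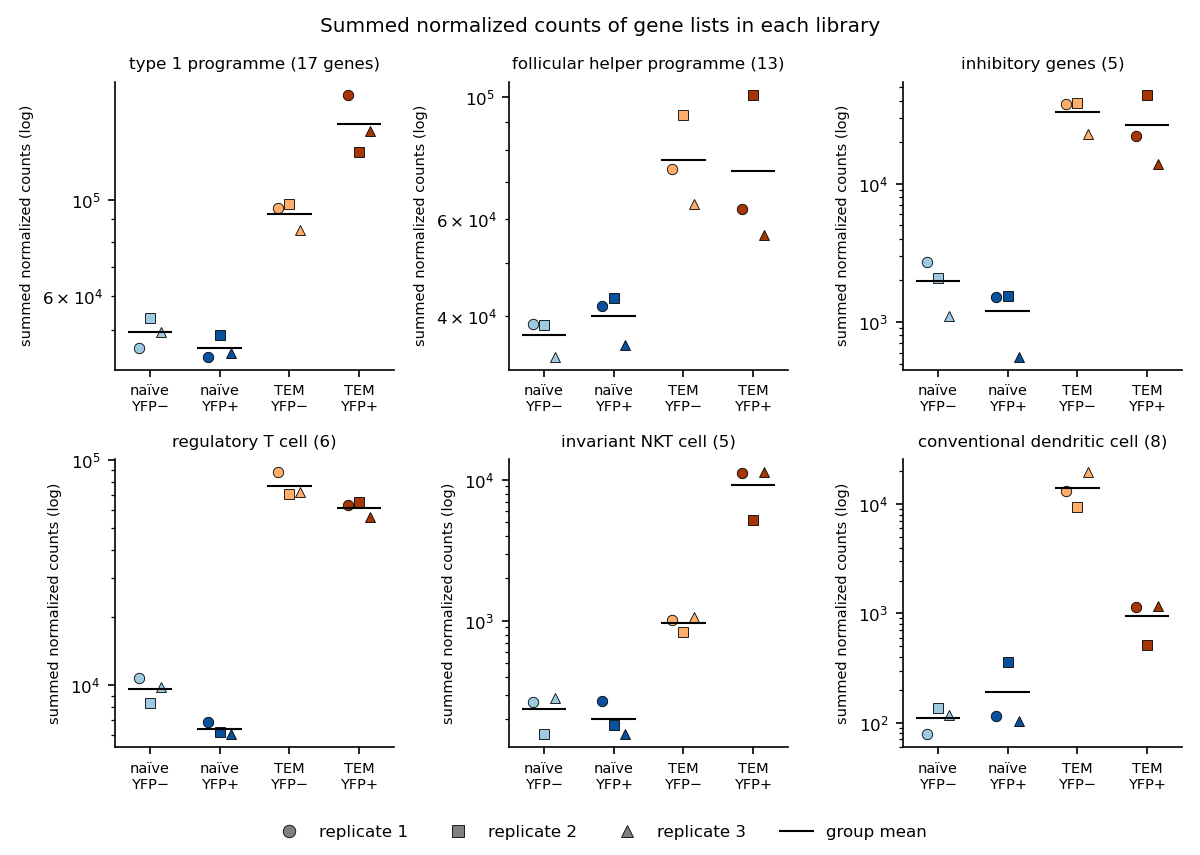
Summed normalized counts by library of the genes on 6 lists: type 1 (17 genes), follicular helper (13), inhibitory (5), regulatory T cell (6), invariant NKT cell (5) and conventional dendritic cell (8). The type 1 sum is at least 128852 in YFP+ TEM and at most 97551 in the other libraries, replicate 2 is the highest TEM library for follicular helper genes, and the dendritic cell sum is highest in YFP− TEM cells.

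Of 12 tested type 2 genes, 9 were higher and 3 lower in TEM cells (median 2.68). For YFP in TEM cells 0 passed the test in limma, with the replicate block or in edgeR, and 1 was higher after quantile normalization. Il4 was near the floor in naïve cells, with at most 2.95 normalized counts. It had 30.3, 60.0 and 34.6 in YFP− TEM and 78.9, 139.8 and 154 in YFP+ TEM libraries (means 41.7 and 124). Every YFP+ TEM library thus lay above every YFP− TEM library, as for 10.6% of all genes. The log2 difference of 1.56 (SE 0.58) did not pass the test (limma adjusted p = 0.16). The study reports higher Il4 expression in YFP+ TEM cells. Ccr4, a homing receptor of type 2 and regulatory cells, was higher in TEM than in naïve cells by 6.44 (SE 0.32), and the IL-4 receptor Il4ra was lower by −2.05 (SE 0.14). Of 9 tested type 17 genes, 7 were higher and 1 lower in TEM cells (median 3.05). Il23r, the receptor chain that sustains type 17 cells, had 0 normalized counts in all 6 naïve libraries, 99.2, 64.5 and 117 in YFP− TEM and 387, 199.9 and 362 in YFP+ TEM libraries. It was the one type 17 gene called for YFP in TEM cells, higher by 1.73 (SE 0.41, limma adjusted p = 0.0226). Genes of γδ T cells, which can also carry Il23r, did not move as one. The γ chain constant genes Trgc1, Trgc2 and Trgc4 were higher in YFP+ TEM cells, while Trdc, the δ chain constant gene that γδ T cells need, averaged 273 in YFP− TEM and 221 in YFP+ TEM cells (log2 difference −0.28, adjusted p = 0.566) and was lower in TEM than in naïve cells by −1.16. The part of γδ T cells was not tested.

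Of 8 tested genes of the aryl hydrocarbon receptor pathway 3 were higher and 2 lower in TEM cells (median 0.07), shares near those over all genes. The 3 higher ones are all targets of the receptor, Cyp1a1, Ahrr and Nqo1 (1.36, SE 0.30). The lower ones were its partner Arnt (−0.16, SE 0.06) and Tiparp, which is also a target (−0.28, SE 0.09). Cyp1a1, the classic target that breaks down its ligands, had 6.18 to 10.6 normalized counts in naïve libraries, 55.8, 109.7 and 46.9 in YFP− TEM and 49.5, 84.9 and 37.1 in YFP+ TEM libraries (log2 difference between TEM and naïve cells 2.82, SE 0.31). Ahrr, the repressor of the receptor, averaged 2.66 and 1.79 normalized counts in the naïve groups, 45.1 in YFP− TEM and 11.0 in YFP+ TEM cells. It was higher in TEM than in naïve cells by 3.12 (SE 0.48), and for YFP in TEM cells it gave −1.97 (adjusted p = 0.121). None of the 8 was called for YFP, and the median was −0.08. Marker genes of conventional dendritic cells, which also express Ahr and Ahrr, were lower in YFP+ TEM cells in 7 of 8 cases (median −4.19), and the part of these cells was not tested.

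Of 13 follicular helper genes, 11 were higher and 1 lower in TEM than in naïve cells (median 2.14) and 0 were called for YFP in TEM cells. Il21, the cytokine of follicular helper cells and a known c-MAF target, was at most 13.8 normalized counts in naïve libraries. It had 1001, 3542 and 661 in YFP− TEM and 882, 5965 and 541 in YFP+ TEM libraries, so that replicate 2 was far above the others in both. Of 5 inhibitory genes linked to BLIMP-1 and c-MAF, all 5 were higher in TEM cells (median 6.64), and Havcr2, which encodes TIM-3 and is also found on dendritic cells, alone was called for YFP (lower by −3.17, adjusted p = 0.0072). Lag3 and Tigit were again highest in replicate 2, with 14794 and 9287 normalized counts in YFP− TEM and 17953 and 12339.8 in YFP+ TEM cells. Il10 averaged 337 in YFP− TEM and 417 in YFP+ TEM cells, and its highest library was replicate 2 of YFP+ TEM at 943. Foxp3, the regulatory T cell factor, averaged 16093 in YFP− TEM and 8792 in YFP+ TEM cells and was lower with YFP by −0.87 (SE 0.24, limma adjusted p = 0.045). That call was lost in edgeR (adjusted p = 0.0502), with 0.1 added before the log (0.0603), in a fit of the compared libraries alone (0.0805) and without replicate 1 (0.179) or 3 (0.189) of YFP− TEM or replicate 1 (0.073) or 2 (0.146) of YFP+ TEM cells. Foxp3 was the 1 gene called among 6 regulatory T cell genes, of which Ctla4, Ikzf2, Nrp1 and Tnfrsf18 gave values below 0 and Il2ra gave 0.62, none of them called. Regulatory T cells are also known to express Prdm1, Maf, Gata3 and Rora, and their part in those levels was not tested.

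Of 10 partners and corepressors 1 was higher and 4 lower in TEM cells (median −0.26), among them Mafg, a small MAF protein that pairs with bZIP factors (1.39, SE 0.12) and the corepressor Ncor1 (−0.30, SE 0.09). Of 12 relatives from the same families 6 were higher and 3 lower (median 1.48, or 0.24 after quantile normalization, with 3 higher and 4 lower). None on either list was called for YFP in TEM cells, and no gene of any list was called for YFP in naïve cells.

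For each factor the genes with the most similar profile were taken by Pearson correlation of log2 values over the 12 libraries, among 11693 genes that averaged 50 or more normalized counts. Since the 6 TEM and 6 naïve libraries stand apart, these values mainly describe that split. Tbx21 was nearest to St6galnac1, AW112010 and Bmp7 (each 0.996), Maf to B4galnt4, Setbp1 and Tigit (each 0.997) and Rora to Tmem176b (0.993), Tmem176a and Fgl2 (both 0.992). Ahr was nearest to Snrnp25 (0.995), Dhrs3 and Tnfrsf9 (both 0.994), Gata3 to Zfp827 (0.994), Dtx4 (0.989) and Fut8 (0.984), and Prdm1 to Wbp1 and Acvr2a (both 0.990) and Grina (0.985). Bcl6 was nearest to Stambp (0.990), Ciapin1 (0.971) and Arc (0.970), Eomes to Lamp2 (0.978), Matk (0.974) and Capn5 (0.973), and Runx3, which did not follow the split, to Gbf1 (0.922), Septin11 (0.920) and Sytl2 (0.913).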

How the data were processed

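RNA of 12 libraries (4 groups of 3) was sequenced. The authors mapped reads to mm10 with DRAGEN, counted them with Rsubread and scaled them by DESeq2 size factors; the deposited signal is these normalized counts. Annotation, strand setting and tool versions are not given in the sources used here. All value columns were used (0 unused), and whole reads were recovered from 100% of values within 0.001. Entrez identifiers were matched to RefSeq GRCm38.p6 (16749 of 17523 genes), and exon lengths came from GENCODE.

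Values were analysed as log2(normalized count + 1), which understates changes of low genes. After the filter (5 or more in 3 or more libraries), 15587 genes entered limma 3.58.1 in R 4.3.3: a model of 4 groups, eBayes with trend, 8 residual degrees of freedom and Benjamini-Hochberg adjustment over all tested genes. Scripts were tested on simulated data. The named genes are the 9 factors, genes overlapping them, Cd44, Cd4 and Csf2, up to 4 genes per list and comparison (highest level, or largest change past the threshold) and the 3 genes most similar to each factor. Fasl, Il12rb2, Hlx, Nqo1, Arnt, Tiparp, Il2ra and Tnfrsf18 were named after their values were seen, to complete small counts, and a few genes under the rule are not reported. The factors and lists were chosen with earlier results of these data known. Alternatives were another added count, filter or normalization, edgeR 4.0.16 and DESeq2 1.42.0 on recovered reads, the replicate block, the compared libraries alone, a fold threshold and leaving out each library in turn. Leaving out the 4 libraries numbered 2 was chosen after seeing the data.

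The replicate numbers in the labels paired the samples where deviations from the group means correlated: 0.180, 0.338 and 0.356 between the YFP fractions of TEM cells, 0.306, 0.491 and 0.360 in naïve cells, and 0.168, 0.137 and 0.232 between YFP− naïve and YFP− TEM cells. The study gives 3 mice for the sort, and no source says which library came from which mouse, so p values measure the spread between libraries.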

Additional observations from a re-analysis of the deposited data

Results flagged for a closer look

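For 6 genes of the programme lists, the effect of YFP in TEM cells minus that in naïve cells passed the test of the difference itself (limma, adjusted p of 0.05 or less). The difference was 1.40 for Il2rb (SE 0.23, adjusted p = 0.0059), 3.04 for Prf1 (SE 0.41, adjusted p = 0.0030), 3.34 for Xcl1 (SE 0.67, adjusted p = 0.0161) and −4.08 for Havcr2 (SE 0.88, adjusted p = 0.0234). It was 1.71 for Fasl (SE 0.35, adjusted p = 0.0191) and −4.25 for Hlx (SE 0.95, adjusted p = 0.0277). The part of dendritic cells in the values of Havcr2 and Hlx was not tested. Xcl1 had at most 1.15 normalized counts in naïve libraries, so its log2 values there depend on the count added before the log. None of the 9 factors passed this test in the fit of all 12 libraries without the block. Prdm1 passed with the block (adjusted p = 0.0298), and Tbx21 without replicate 3 of YFP+ naïve cells (0.0349).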

How the results depend on the processing

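The 8 factors called higher in TEM cells on average kept that call and direction under every alternative except a log2 fold change of at least 1, which Eomes (0.84) and Bcl6 (0.90) did not reach. Genes called higher and lower numbered 5328 and 3954 for TEM against naïve cells on average, 4665 and 3104 in YFP− and 3849 and 2604 in YFP+ cells, 359 and 728 for YFP in TEM, 1 and 0 for YFP in naïve cells, and 129 and 425 for the difference of the YFP effects.

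Quantile normalization gave 6675 lower on average, 5925 in YFP− and 4626 in YFP+ cells, and for YFP in TEM cells 686 higher, with 0 factors higher, and 223 higher for the difference of effects. A log2 fold change of at least 1 left 3359 higher and 894 lower on average, 819 lower in YFP− cells, 2538 higher and 781 lower in YFP+ cells, and 203 higher with 0 factors for YFP in TEM cells. Adding 0.1 gave 0 factors for YFP in TEM cells, 2 higher and 1 lower gene in naïve cells and 80 higher for the difference. The replicate block gave 2 factors higher and 1 lower and 814 genes higher for YFP in TEM cells, 2 higher and 4 lower in naïve cells, and 1 factor and 293 genes higher for the difference. Blocked, Runx3 was also higher in TEM than in naïve YFP+ cells (adjusted p = 0.0359), where the numbers did not pair (coefficients 0.204, −0.020 and 0.056); no further call of a factor changed. DESeq2 gave 2 factors and 569 genes higher for YFP in TEM cells, 7 higher and 5 lower in naïve cells and 205 higher for the difference. edgeR gave 1 lower gene in naïve cells and turned the difference for Maf, which was not called, to 0.029. The naïve libraries fitted alone gave 0 higher.

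Without the 4 libraries numbered 2, YFP in TEM cells called 0 factors and YFP in naïve cells 0 genes higher, and the uncalled values of Prdm1 in naïve cells (0.0019) and of Runx3 for the difference (0.051) changed sign. Leaving out 1 library each time gave from 0 to 0 factors higher, 0 to 1 lower, 202 to 420 genes higher and 414 to 666 lower for YFP in TEM cells, 0 to 1 higher in naïve cells, and 0 to 1 factors, 68 to 174 genes higher and 205 to 421 lower for the difference. Uncalled values that changed sign ranged, for YFP in TEM cells, from −0.0019 to 0.26 (Gata3) and −0.021 to 0.45 (Maf), in naïve cells from −0.26 to 0.10 (Rora), −0.16 to 0.17 (Ahr), −0.28 to 0.069 (Prdm1) and −0.0084 to 0.15 (Eomes), and for the difference from −0.19 to 0.10 (Gata3), −0.22 to 0.11 (Runx3), −0.33 to 0.18 (Maf) and −0.53 to 0.047 (Bcl6). The cause of these changes was not tested.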
